A study of Mus musculus with 40 samples.

Results

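The axon guidance ligands and receptors of the mouse brain were followed across 5 brain regions and 2 genotypes of the type 2 deiodinase. Members were chosen by a rule on gene symbols, set with earlier results of these data known. It takes in semaphorins of classes 3 to 6, plexins, neuropilins, ephrins, Eph receptors, Slits, Robos, netrins, Dcc and the Unc5 receptors. Sema3e was left out. The rule found 63 of the 19505 genes on the array, 31 ligands and 32 receptors, each measured by 1 row of the table. Of these, 62 passed the filter on low values that 14978 genes passed, and Slit2 did not. Nrp1, Ephb2, Sema4a and Ntn3 were not analysed here.

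The arrays came from mice of the C56BL/6 background, as the labels spell it, aged 8 to 10 weeks. Mice of the genotype Thr92D2HY carried threonine, and mice of the genotype Ala92D2HY alanine, at position 92 of Dio2, the enzyme that converts thyroxine to the active hormone T3 inside the brain. All mice were kept at room temperature on chow, with no other treatment or allele named in the labels. Amygdala, cerebellum, hippocampus, prefrontal cortex and striatum gave 4 Affymetrix arrays per genotype, 40 in all in 10 groups. No label links an array to a mouse, so a p-value here speaks to the spread among arrays alone, which may be technical, and arrays of different regions may share animals. These were bulk samples, in which fewer cells of a type and less RNA per cell cannot be told apart.

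Marker genes were set against the region labels. All 11 cerebellar markers tested were called higher in the cerebellum and all 12 striatal markers in the striatum. In the hippocampus 9 of 11 hippocampal markers were higher, and in the amygdala 8 of 12 amygdala markers were higher and 1, Prkcd, was lower. Neocortical markers were higher in the prefrontal cortex for 6 of 9 genes, but also for 5 of 9 in the amygdala and 5 of 9 in the hippocampus. The prefrontal arrays also carried 8 of 9 olfactory bulb markers at a higher level, and all 11 myelin genes were higher in the striatum and lower in the amygdala. The marker scores of 5 arrays, picked after seeing the data, stood apart within their region. Alanine amygdala array 1 lay 2.34 log2 units above its region's mean for striatal markers and 1.12 units below it for amygdala markers, and alanine amygdala array 2 and alanine striatum array 36 lay 2.19 and 2.71 units above theirs for choroid plexus genes. Threonine hippocampus arrays 23 and 24 lay 1.86 and 1.15 units above theirs for thalamic genes. Other scores also spread widely: choroid plexus means ran from 5.75 to 9.43 on alanine hippocampal arrays and 5.71 to 8.92 on alanine cerebellar arrays. Olfactory bulb means ran from 6.78 to 9.61 on alanine prefrontal arrays. The part of such tissue in the results was not tested. Counts without the 5 arrays are given beside the main ones, and they leave these other spreads in.

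Guidance cues are read by growth cones and, in the adult, by synapses and vessels. Netrins attract axons through Dcc and repel them through Unc5 receptors, and Slits repel them through Robo receptors. Class 3 semaphorins are secreted and signal through complexes of neuropilins and plexins, whereas semaphorins of classes 4 to 6 are membrane proteins that bind plexins directly. Ephrin-A ligands are anchored to the membrane by a lipid and bind mainly EphA receptors, ephrin-B ligands span the membrane and bind mainly EphB receptors, and Epha4 binds both classes. Thyroid hormone acts through nuclear receptors whose DNA half-site reads AGGTCA.

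Promoter windows of 250 bases before a listed start site are given for 3 members, chosen after the values were seen. Sema6d is shown as the single member that differed between the genotypes. Ntn4 and Sema5a are shown as members with large regional differences whose window holds the half-site. The sequences are from RefSeq on GRCm38.p6, 5′ to 3′ on the gene's strand. Capitals mark AGGTCA and, in Sema6d, the palindrome CACGTG, the E-box core bound by bHLH factors.

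Ntn4: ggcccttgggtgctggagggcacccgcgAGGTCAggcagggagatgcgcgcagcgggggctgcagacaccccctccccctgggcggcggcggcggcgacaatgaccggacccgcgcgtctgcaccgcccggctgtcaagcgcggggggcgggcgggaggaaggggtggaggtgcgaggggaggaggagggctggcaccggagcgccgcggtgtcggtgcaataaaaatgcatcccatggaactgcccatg
Sema5a: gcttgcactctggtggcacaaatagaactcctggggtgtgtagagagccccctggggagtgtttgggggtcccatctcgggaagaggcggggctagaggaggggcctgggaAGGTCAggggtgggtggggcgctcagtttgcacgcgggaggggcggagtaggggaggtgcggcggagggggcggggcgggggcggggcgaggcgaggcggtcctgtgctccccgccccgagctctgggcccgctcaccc
Sema6d: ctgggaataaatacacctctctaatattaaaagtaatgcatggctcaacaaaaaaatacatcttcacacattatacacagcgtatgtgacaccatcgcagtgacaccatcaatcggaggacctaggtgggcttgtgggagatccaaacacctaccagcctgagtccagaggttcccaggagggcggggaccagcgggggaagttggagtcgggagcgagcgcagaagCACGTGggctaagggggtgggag

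The Ntn4 window lies at chr10:93640799-93641048 on the plus strand, that of Sema5a at chr15:32244563-32244812 on the plus strand and that of Sema6d at chr2:124089719-124089968 on the plus strand. The last 26 bases of the Sema6d window lie inside the span that the gene table gives for Sema6d. The marked CACGTG is among them, so it is not upstream of that span. A second start listed for Sema6d has no CACGTG in its window. Of the 66 windows of members, 42 reached into the span of their gene, since the listed start can lie downstream of the outermost one. Windows were found for 53 of the 63 members. AGGTCA on either strand occurred in 10 of the 53 members (18.9%) and in 15.8% of all genes with a window. CACGTG occurred in 4 of the 53 (7.55%) against 6.86% of all genes. GGGCGG, the GC box, on either strand occurred in 39 of the 53 (73.6%) against 35.4%, and the median GC content was 64.4% in the members' windows and 52.4% in all windows. A match is a string of letters in this window and says nothing of binding.

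Levels below are log2 signals, given as the median with the lowest and highest of the 8 arrays of a region in brackets. Differences are log2 differences with limma's standard error, for 1 region against the mean of the other 4 unless stated. A size of 1 unit is a 2-fold difference. For a forebrain region the mean of the other 4 includes the cerebellum. A gene far lower or higher in the cerebellum can thus be called in a forebrain region that differs little from the other forebrain regions. Such calls enter the counts below. Levels are compared within a gene only. Where all arrays of a region are said to lie above or below all others, the share of all genes so separated was not counted. A region difference was called at an adjusted p under 0.05 with a size of at least 1 unit. On the 40 arrays the 5222 negative controls had medians from 5.73 to 6.35. Their 95th percentiles ran from 9.63 to 10.5. A level above the range of control medians can thus still lie within the spread of single controls. By their region means, 36 members lay above the range of control medians in every region and 15 lay at or below it in every region. The second set holds Efna1, Efna2, Efna4, Epha2, Epha8, Epha10, Ephb3, Ephb4, Ntn1, Ntn5, Robo3, Robo4, Sema3b, Sema3g and Slit2, which read near background.

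Most guidance genes differed between regions. Of the 62 tested, 43 (69.4%) were called in at least 1 region, against 25% of all 14978 genes. The cerebellum stood furthest from the other regions: 13 members were called higher there and 23 lower, against 8.69% and 10.1% of all genes. The 13 include Ntn1 and Epha8, which read near background. Ntn1 was tested because of its cerebellar level, and Epha8 only just passed the filter, with its highest mean there. Both also enter the 43, and their calls are no separate evidence. In the striatum 14 were higher and 12 lower, against 5.71% and 5.2%. The hippocampus had 13 higher and 6 lower, against 3.57% and 2.34%, and the amygdala had 10 higher and 3 lower, against 3.4% and 2.44%. In the prefrontal cortex 6 were higher and 3 lower, against 3.28% and 1.94%. As shares of the 62, called members were 58.1% in the cerebellum, 41.9% in the striatum, 30.6% in the hippocampus, 21% in the amygdala and 14.5% in the prefrontal cortex, each above the background of 18.7%, 10.9%, 5.91%, 5.84% and 5.21%. Without the 5 arrays that stood apart the counts were 13 and 23 in the cerebellum, 14 and 12 in the striatum, 14 and 7 in the hippocampus, 10 and 4 in the amygdala, and 6 and 3 in the prefrontal cortex.

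The regional calls were also made in the 2 genotypes separately, on arrays that the 2 fits do not share. In the cerebellum 35 members were called on the threonine arrays and 34 on the alanine arrays, 34 of them on both in the same direction. Of all genes tested, 20.2% and 19.3% were called there, and 17.7% in both in the same direction. The shared calls were 21 of 22 and 26 in the striatum, 18 of 21 and 18 in the hippocampus, 11 of 13 and 16 in the amygdala and 6 of 10 and 8 in the prefrontal cortex, in the same order. The shares of all genes called in both were 9.75%, 5.31%, 4.55% and 4.45% in these 4 regions. On the threonine arrays 11.3%, 6.6%, 6.94% and 5.66% of all genes were called there. On the alanine arrays the shares were 12%, 6.07%, 5.63% and 5.21%. Whether calls of members recurred more or less often than those of all genes was not tested. No member was called in opposite directions. By role, in the cerebellum 7 of 30 ligands were higher and 9 lower, and 6 of 32 receptors were higher and 14 lower, while in the hippocampus 9 receptors were higher and 1 lower, against 4 and 5 ligands. Whether the roles differ was not tested.

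**Figure D1:**
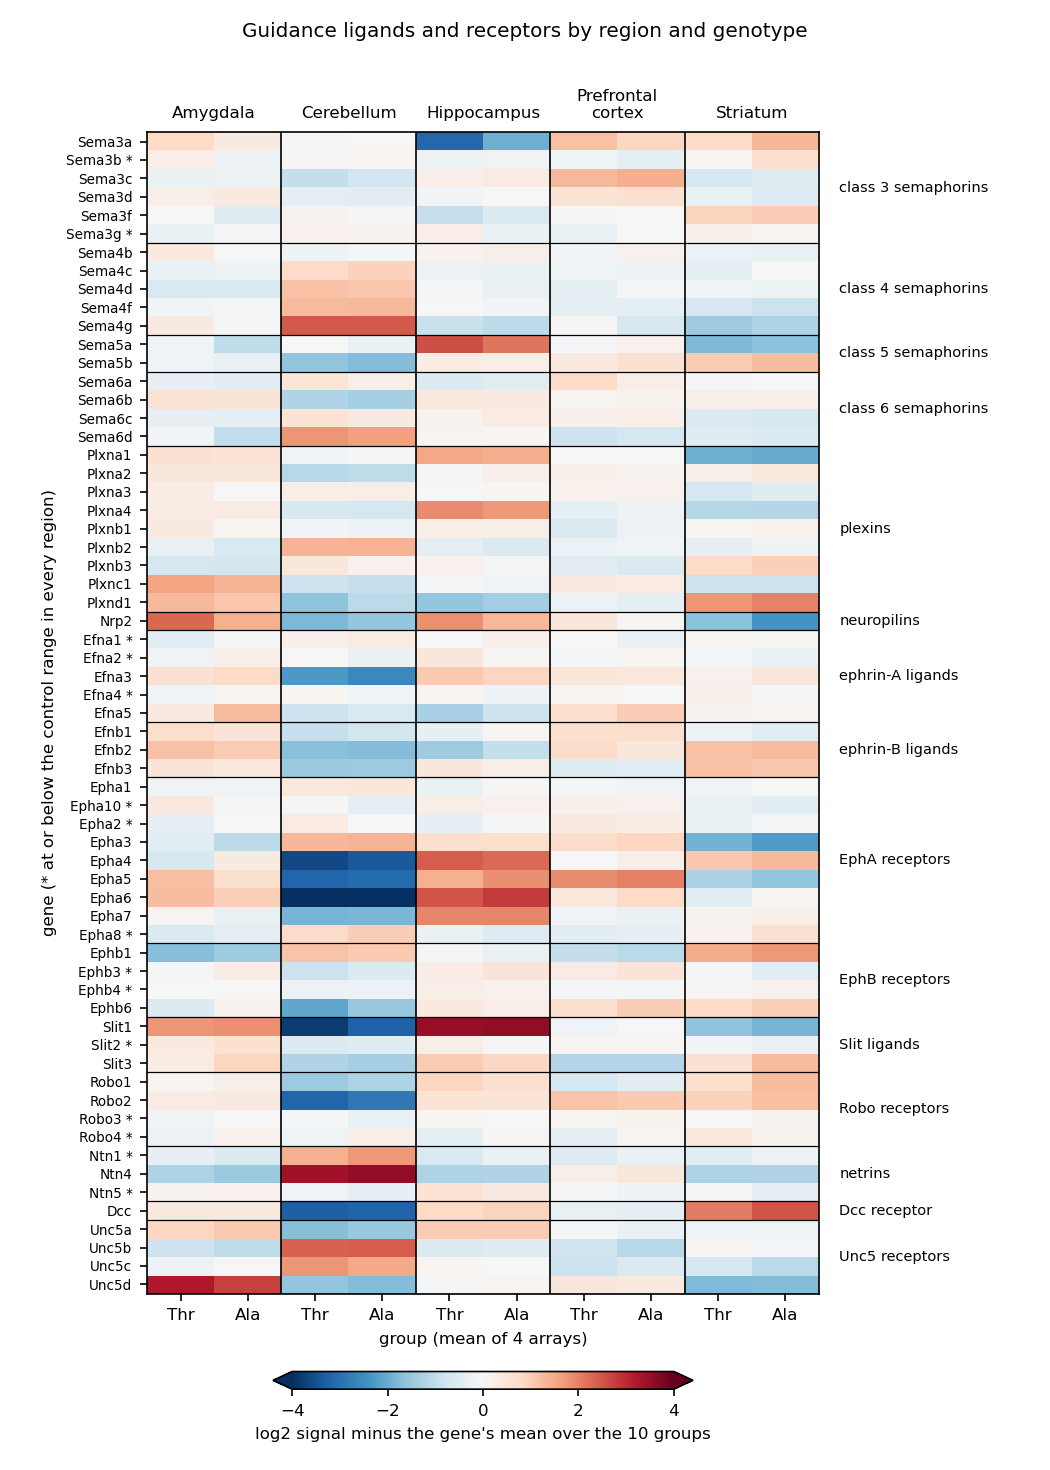
Each row is 1 of the 63 members, grouped by family, and each column is the mean of the 4 arrays of 1 region and genotype (Thr, threonine; Ala, alanine). Colour gives the log2 signal minus the gene's mean over the 10 groups, from blue (lower) to red (higher), and an asterisk marks the 15 members at or below the range of control medians in every region. The cerebellum columns hold deep blues (Epha4, Epha6, Slit1, Dcc, Robo2) and reds (Ntn4, Sema4g, Unc5b), Slit1 and Epha6 are red in the hippocampus and Unc5d in the amygdala, and the columns of a region's 2 genotypes differ less than those of different regions.

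Among the netrins and their receptors, Ntn4, Unc5b and Unc5c were highest in the cerebellum, Dcc in the striatum and Unc5d in the amygdala. Ntn4, a secreted netrin that binds laminin in basement membranes, had a median of 9.07 (8.46 to 9.58) in the cerebellum against 5.89 (5.06 to 7.26) in the prefrontal cortex. It lay at 4.31 (4.12 to 4.90) in the hippocampus, 4.34 (4.12 to 4.77) in the striatum and 4.36 (3.53 to 4.87) in the amygdala, below the range of control medians. All 8 cerebellar arrays exceeded all 32 others, by a difference of 4.31 ± 0.18 (adjusted p = 9.2e-24). The prefrontal cortex also stood above the next region (difference 1.56, adjusted p = 6.1e-07), and the 3 remaining regions were not separated. Relative to the other regions Ntn4 was called lower in the hippocampus (-1.52), the striatum (-1.53) and the amygdala (-1.69).

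Ntn1, the founding attractant of the family, was dim. Its median was 6.10 (5.29 to 6.54) in the cerebellum and between 4.03 and 4.23 in the other 4 regions, where no array exceeded 4.87. The cerebellar arrays did not overlap with any other and differed by 1.98 ± 0.14 (adjusted p = 4.2e-16), although even they reached only the level of the control medians. Ntn1 exceeded the filter level on 11 arrays, and its region mean did so in 1 region, the cerebellum. It was thus tested because of the region in which it was called, and the call is no separate evidence. By its region means Ntn5 stayed below the range of control medians, and it was not called in any region.

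Dcc, the receptor through which netrin-1 attracts axons, was highest in the striatum at 12.04 (11.47 to 12.79). It followed at 10.62 (10.31 to 11.01) in the hippocampus, 10.28 (9.65 to 10.62) in the amygdala, 9.44 (8.94 to 10.11) in the prefrontal cortex and 6.54 (6.20 to 7.21) in the cerebellum. Striatal arrays lay above and cerebellar arrays below all arrays of the other regions. The striatal difference was 2.86 ± 0.14 (adjusted p = 6.0e-21), the cerebellar one -4.03 ± 0.14 (1.5e-26) and the hippocampal one 1.06 ± 0.14 (3.5e-08). The hippocampal call was set against a mean that includes the low cerebellar level. Only hippocampus and amygdala, neighbours in the order of levels, were not separated (difference 0.45, adjusted p = 0.0691).

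The 4 Unc5 receptors, which turn the netrin signal to repulsion, fell into opposite patterns. Unc5b, also a receptor of blood vessels, had a median of 10.84 (10.29 to 11.22) in the cerebellum, 8.31 (7.87 to 8.93) in the striatum, 7.98 (7.33 to 8.30) in the hippocampus, 7.55 (7.02 to 7.78) in the amygdala and 7.54 (6.97 to 7.72) in the prefrontal cortex. Unc5c, whose loss disturbs the layout of the cerebellum, had medians of 11.36 (11.14 to 11.74), 8.82 (8.41 to 9.30), 9.78 (9.50 to 10.05), 9.72 (8.97 to 10.03) and 8.95 (8.74 to 9.75) in the same order of regions. For both genes every cerebellar array lay above every other array. The cerebellar differences were 3.00 ± 0.13 (adjusted p = 5.4e-23) for Unc5b and 2.05 ± 0.11 (3.4e-20) for Unc5c. Unc5b was called lower in the amygdala (-1.16 ± 0.13) and the prefrontal cortex (-1.20 ± 0.13), which did not differ from each other (adjusted p = 0.93).

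Unc5d, a netrin receptor family member of cortical layers, was the member that set the amygdala apart most. Its median there was 11.99 (10.43 to 12.43), against 9.11 (8.82 to 9.65) in the prefrontal cortex, 8.75 (8.28 to 9.09) in the hippocampus, 6.84 (5.75 to 7.66) in the striatum and 7.11 (6.28 to 7.45) in the cerebellum. Every amygdala array lay above all 32 others, with a difference of 3.70 ± 0.19 (adjusted p = 4.7e-18). The lowest amygdala value, 10.43, belonged to alanine array 1, the array with the raised striatal markers. Unc5a was level in hippocampus and amygdala (9.53 and 9.61) and was called higher in both (1.26 and 1.19), while its 8 cerebellar arrays, at 6.61 to 7.58, lay below all others.

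**Figure D2:**
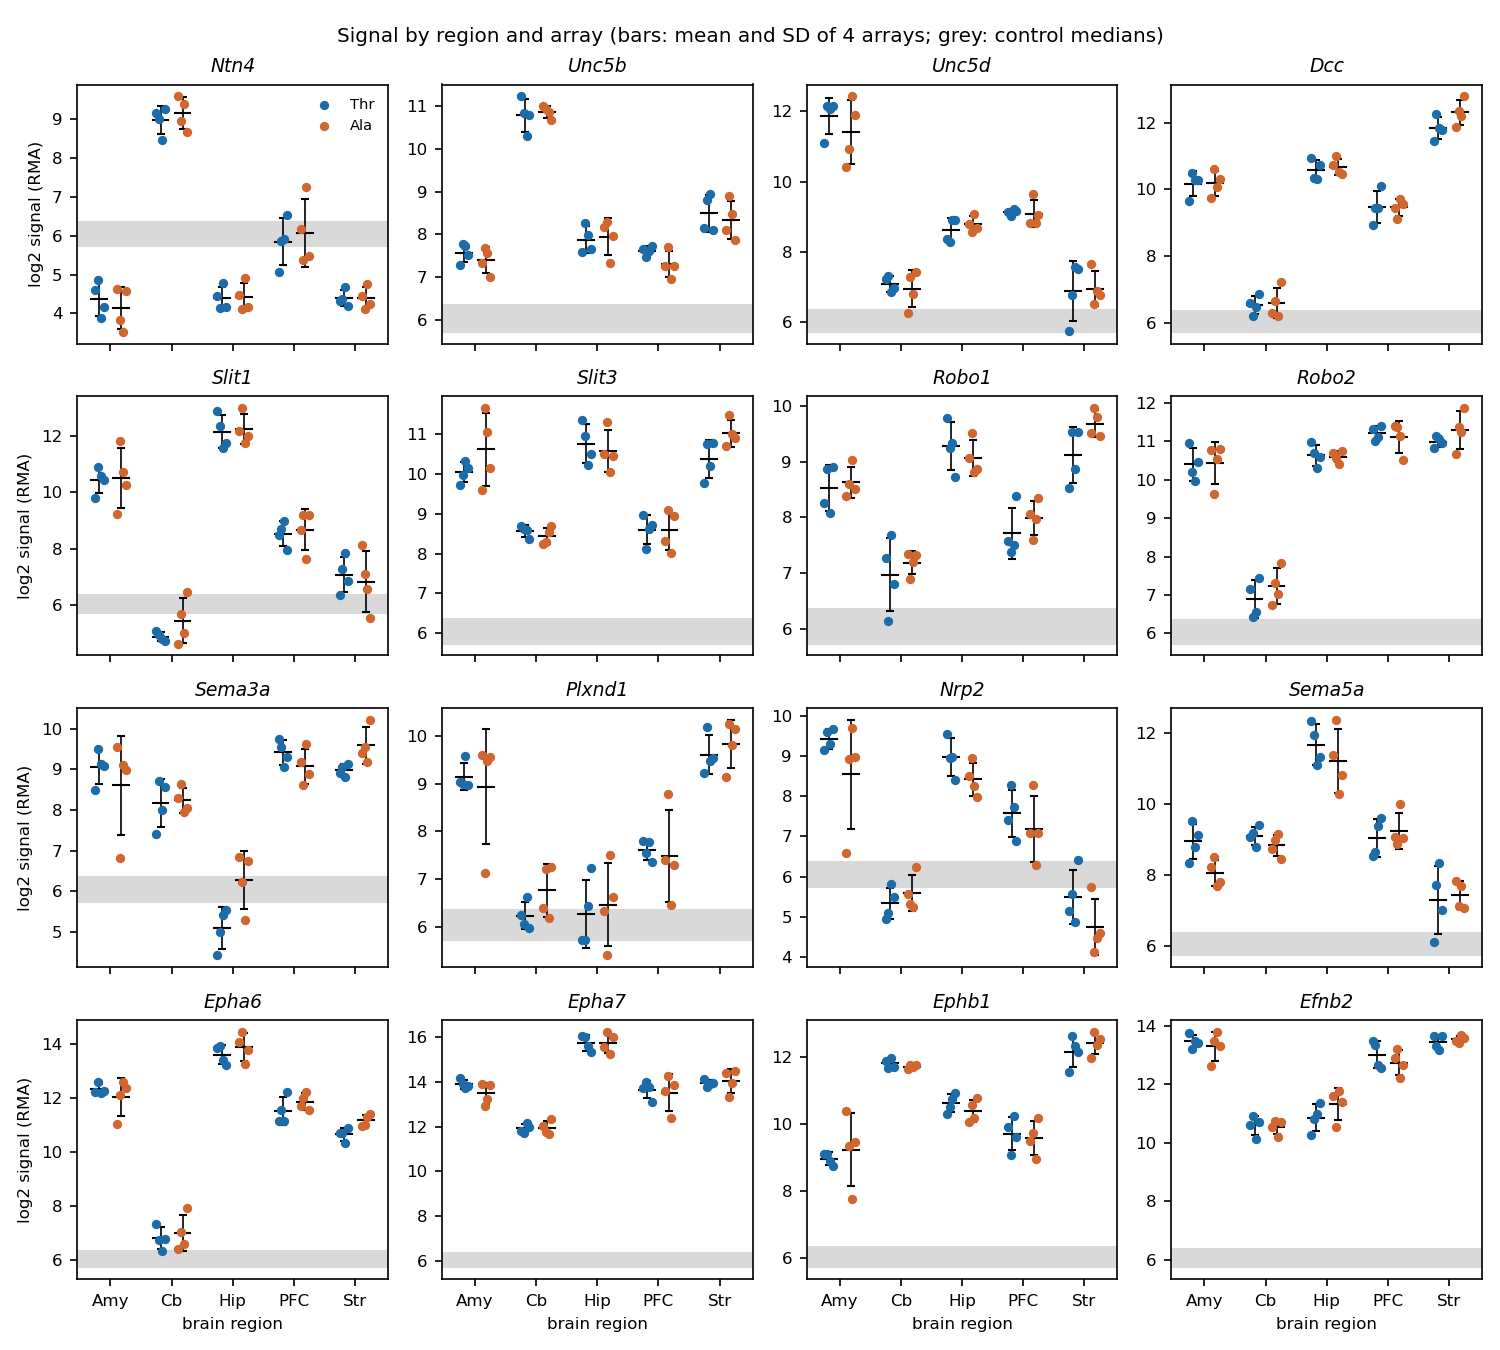
Each panel plots the log2 signal of 1 gene (vertical axis) on all 40 arrays by region: Amy, amygdala; Cb, cerebellum; Hip, hippocampus; PFC, prefrontal cortex; Str, striatum. Blue points are threonine and orange points alanine arrays, bars are the mean and SD of 4 arrays, and the grey band is the range of control medians (5.73 to 6.35). Ntn4 and Unc5b are highest in all cerebellar arrays, Unc5d in all amygdala arrays, Dcc in all striatal arrays and Epha6, Epha7 and Sema5a in all hippocampal arrays.

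Slit1, a secreted repellent, spanned a wide range of levels. Its median was 12.10 (11.59 to 12.99) in the hippocampus, 10.51 (9.25 to 11.83) in the amygdala, 8.69 (7.65 to 9.21) in the prefrontal cortex, 6.98 (5.53 to 8.13) in the striatum and 4.98 (4.64 to 6.46) in the cerebellum. Each of these 5 regions differed from the next, with adjusted p between 6.2e-06 and 6.7e-05. The hippocampal arrays ran 4.39 ± 0.25 above the mean of the other regions and the cerebellar arrays differed by -4.39 ± 0.25, with the lowest hippocampal array below the highest amygdala array. The cerebellar mean, 5.17, lay below the control medians, so the sizes and steps that involve the cerebellum are set against a signal near background. The amygdala was called higher too (2.24 ± 0.25), and the striatum lower (-2.15 ± 0.25).

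Slit3 followed another order. It lay at 10.77 (9.79 to 11.50) in the striatum, 10.50 (10.06 to 11.35) in the hippocampus and 10.16 (9.60 to 11.66) in the amygdala, which were not separated from their neighbours (adjusted p = 0.938 and 0.35). The prefrontal cortex, at 8.68 (8.03 to 9.09), and the cerebellum, at 8.57 (8.24 to 8.69), were both called lower, at -1.46 ± 0.17 and -1.58 ± 0.17. Slit2 was not tested: its region means ran from 3.14 in the cerebellum to 4.14 in the amygdala, below the range of control medians.

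The Slit receptors Robo1 and Robo2, which neighbour each other in the GRCm38.p6 gene table, were both called lower in the cerebellum and higher in the striatum. Robo2 had a median of 11.23 (10.52 to 11.41) in the prefrontal cortex, 11.10 (10.68 to 11.86) in the striatum, 10.63 (10.31 to 10.97) in the hippocampus and 10.50 (9.63 to 10.96) in the amygdala, against 7.09 (6.42 to 7.84) in the cerebellum, where all 8 arrays lay below all others. Its differences were -3.77 ± 0.14 in the cerebellum (adjusted p = 1.2e-24), 1.35 ± 0.14 in the prefrontal cortex and 1.33 ± 0.14 in the striatum. The prefrontal and striatal levels were not separated (adjusted p = 0.955). Robo1 ran from 9.53 (8.53 to 9.97) in the striatum through 9.16 (8.74 to 9.78) in the hippocampus, 8.56 (8.08 to 9.03) in the amygdala and 7.78 (7.38 to 8.39) in the prefrontal cortex to 7.23 (6.15 to 7.68) in the cerebellum. It was called in the striatum (1.23 ± 0.15) and the cerebellum (-1.67 ± 0.15), and the striatal difference came to 0.99 on the threonine arrays alone, just under the size asked for. The prefrontal cortex parted the pair: Robo1 lay -0.71 there relative to the other regions, a difference that was under the size asked for. Robo2 was called higher there, as in the striatum, against a mean that includes its low cerebellar level. Robo3, a receptor of commissural axons, and Robo4, a receptor of endothelium, had region means below the control medians and were not called in any region.

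Among class 3 semaphorins, 3 of 6 members were called in at least 1 region. Sema3a, a repellent and a component of the matrix around inhibitory neurons, had a median of 9.15 (8.80 to 10.21) in the striatum, 9.24 (8.61 to 9.75) in the prefrontal cortex, 9.09 (6.82 to 9.54) in the amygdala and 8.17 (7.41 to 8.70) in the cerebellum. In the hippocampus it was 5.49 (4.42 to 6.85), on average just below the control medians. Hippocampal arrays overlapped only with the lowest amygdala array, 6.82 on alanine array 2, which carried choroid plexus genes, and the difference was -3.20 ± 0.21 (adjusted p = 8.5e-16). Sema3a was called higher in the striatum (1.29 ± 0.21) and the prefrontal cortex (1.24 ± 0.21). The prefrontal call was lost on the alanine arrays alone, at 0.89 with an adjusted p of 0.0832.

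Sema3c, another secreted semaphorin, was also called higher in the prefrontal cortex. It had a median of 9.70 (8.88 to 10.74) there, 8.68 (8.14 to 9.23) in the hippocampus, 8.20 (7.63 to 8.65) in the amygdala, 7.76 (7.51 to 8.28) in the striatum and 7.50 (7.24 to 7.98) in the cerebellum, with a prefrontal difference of 1.72 ± 0.16 (adjusted p = 2.2e-11). Sema3f, a ligand of Nrp2, ranged from 7.23 to 8.05 in the striatum, above all 32 other arrays, and was called there only, at 1.18 ± 0.12.

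Class 4 semaphorins, membrane ligands of plexins, were higher in the cerebellum: 4 of 5 members, Sema4c, Sema4d, Sema4f and Sema4g, were called higher there and 0 lower, with a median difference of 1.42 over the family against -0.00465 over all genes. Sema4g, a ligand of Plxnb2, had a median of 9.54 (9.32 to 9.92) in the cerebellum, 7.38 (6.49 to 7.72) in the amygdala, 6.85 (5.93 to 7.73) in the prefrontal cortex, 6.29 (5.59 to 6.66) in the hippocampus and 5.72 (5.42 to 6.47) in the striatum. For all 4 genes every cerebellar array lay above every other array, a separation whose share among all genes was not counted. The differences were 3.07 ± 0.14 for Sema4g, 1.61 ± 0.13 for Sema4f, 1.42 ± 0.17 for Sema4d and 1.07 ± 0.11 for Sema4c. Plxnb2, the plexin bound by Sema4c and Sema4g, was also called higher in the cerebellum, at 1.73 ± 0.15, with arrays from 8.24 to 9.08 against at most 7.47 elsewhere. Plxnb1, a receptor of Sema4d, was not called in any region.

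Sema5a, a transmembrane semaphorin with thrombospondin repeats, was highest in the hippocampus and above the control medians in every region by its means. Its median was 11.35 (10.27 to 12.37) in the hippocampus, 9.07 (8.54 to 10.00) in the prefrontal cortex, 9.03 (8.45 to 9.40) in the cerebellum, 8.42 (7.70 to 9.52) in the amygdala and 7.41 (6.12 to 8.34) in the striatum. Every hippocampal array lay above all others, with a difference of 2.95 ± 0.21 (adjusted p = 6.0e-15), and the striatum was called lower (-2.15 ± 0.21). Sema5b ran the other way in the striatum, where it was called higher (1.40 ± 0.21), and was lower in the cerebellum (-2.07 ± 0.21).

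Of the class 6 semaphorins, Sema6d, a transmembrane ligand of Plxna1, had a median of 13.23 (13.08 to 13.50) in the cerebellum. It lay at 11.66 (11.42 to 11.87) in the hippocampus, 11.13 (10.41 to 11.36) in the striatum, 10.91 (10.32 to 11.81) in the amygdala and 10.84 (10.38 to 10.93) in the prefrontal cortex. The cerebellar arrays lay above all others, by 2.13 ± 0.10 (adjusted p = 6.2e-22), and the 3 lowest regions were not separated from their neighbours. Sema6b went the opposite way, with 8 cerebellar arrays of 9.35 to 10.14 below all others (-1.59 ± 0.12), and Sema6a and Sema6c were called in no region.

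The plexins, receptors of semaphorins, were divided between regions: 7 of 9 were called somewhere. Plxna1 had a median of 10.36 (9.88 to 10.78) in the hippocampus, 9.36 (8.93 to 10.08) in the amygdala, 8.68 (8.59 to 9.44) in the prefrontal cortex and 8.70 (7.94 to 9.20) in the cerebellum. In the striatum it was 6.73 (6.40 to 7.74), below all other arrays. It was called higher in the hippocampus (1.88 ± 0.15) and lower in the striatum (-2.47 ± 0.15, adjusted p = 3.5e-17), and Plxna4 was called in the same directions (2.27 ± 0.16 and -1.45 ± 0.16).

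Plxnd1, a semaphorin receptor of developing vessels and projection neurons, ran against them. Its median was 9.67 (9.14 to 10.24) in the striatum and 9.25 (7.13 to 9.60) in the amygdala, then 7.47 (6.46 to 8.77) in the prefrontal cortex, 6.39 (5.41 to 7.50) in the hippocampus and 6.33 (5.99 to 7.26) in the cerebellum. The difference was 2.35 ± 0.24 in the striatum and 1.50 ± 0.24 in the amygdala, where the lowest array, 7.13, was alanine array 2, one of those that stood apart. Hippocampus (-1.82 ± 0.24) and cerebellum (-1.67 ± 0.24) were called lower and did not differ from each other (adjusted p = 0.777). Plxnc1 was highest in the amygdala, with arrays from 11.47 to 12.58 above all others and a difference of 1.84 ± 0.11.

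Nrp2, the co-receptor of Sema3f, had a median of 9.22 (6.59 to 9.71) in the amygdala and 8.73 (7.97 to 9.56) in the hippocampus, which were not separated (difference 0.29, adjusted p = 0.633). It lay at 7.25 (6.28 to 8.27) in the prefrontal cortex, 5.01 (4.13 to 6.42) in the striatum and 5.40 (4.94 to 6.23) in the cerebellum, the last 2 being below the control range on average. The call was higher in the amygdala (2.33 ± 0.24) and hippocampus (1.96 ± 0.24) and lower in the striatum (-2.52 ± 0.24) and cerebellum (-2.08 ± 0.24). The lowest amygdala value was that of alanine array 1, and without the 5 arrays that stood apart the amygdala difference was 2.68. Across the striatum the ligand Sema3f was called higher and its co-receptor lower.

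Ephrin-A ligands showed a marked division between Efna3 and Efna5, whereas Efna1, Efna2 and Efna4 read near background and were not called. Efna3 had a median of 11.72 (11.48 to 12.38) in the hippocampus, 11.62 (10.92 to 11.99) in the amygdala, 11.30 (10.90 to 11.66) in the prefrontal cortex and 11.11 (10.65 to 11.56) in the striatum, none separated from the next. In the cerebellum it was 8.33 (7.81 to 9.13), below all 32 other arrays, at a difference of -3.04 ± 0.13 (adjusted p = 8.8e-23). Efna3 was also called higher in the hippocampus (1.20), against a mean that includes this low cerebellar level. Efna5, which guides retinal and thalamic axons, lay at 8.21 (7.99 to 9.02) in the prefrontal cortex and 8.23 (7.26 to 9.67) in the amygdala, then 7.55 (7.49 to 7.81) in the striatum, 6.73 (6.54 to 6.96) in the cerebellum and lastly 6.33 (5.54 to 7.36) in the hippocampus. It was called higher in the prefrontal cortex (1.05 ± 0.15) and the amygdala (1.01 ± 0.15) and lower in the hippocampus (-1.34 ± 0.15). Without alanine prefrontal array 28 the prefrontal difference was 0.96, under the size asked for, and on the alanine arrays alone it was 0.99.

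All 3 ephrin-B ligands were called lower in the cerebellum. Efnb2, an ephrin of neurons and arteries, had a median of 13.52 (13.16 to 13.69) in the striatum, 13.44 (12.62 to 13.77) in the amygdala, 12.78 (12.20 to 13.46) in the prefrontal cortex, 11.17 (10.24 to 11.75) in the hippocampus and 10.65 (10.13 to 10.89) in the cerebellum. Its differences were 1.51 ± 0.14 in the striatum, 1.38 ± 0.14 in the amygdala, -1.49 ± 0.14 in the hippocampus and -2.14 ± 0.14 in the cerebellum (adjusted p = 7.7e-17). Efnb3, a ligand of Epha4 at the midline, lay at 10.48 (9.70 to 11.16) in the striatum, 9.93 (9.13 to 10.62) in the amygdala, 9.79 (9.27 to 10.23) in the hippocampus, 8.99 (8.43 to 9.25) in the prefrontal cortex and 7.93 (7.64 to 8.22) in the cerebellum. It was called higher in the striatum (1.41 ± 0.15) and lower in the cerebellum (-1.84 ± 0.15), where no array reached the lowest of any other region.

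Of the 9 EphA receptors, Epha4, Epha5, Epha6 and Epha7 were all called higher in the hippocampus and all lower in the cerebellum. Epha6 showed the most extreme values, with a median of 13.84 (13.23 to 14.46) in the hippocampus, 12.25 (11.04 to 12.61) in the amygdala, 11.63 (11.14 to 12.24) in the prefrontal cortex, 10.93 (10.33 to 11.40) in the striatum and 6.77 (6.35 to 7.93) in the cerebellum. Every hippocampal array lay above and every cerebellar array below all arrays of the other regions. The cerebellar difference was -5.23 ± 0.16 (adjusted p = 1.1e-27) and the hippocampal one 3.33 ± 0.16 (2.5e-19).

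Epha4, the receptor of both ephrin classes, lay at 13.66 (13.19 to 14.32) in the hippocampus, 12.47 (12.34 to 13.43) in the striatum, 11.42 (10.86 to 11.96) in the prefrontal cortex, 11.04 (10.01 to 12.20) in the amygdala and 7.84 (7.64 to 8.44) in the cerebellum. Prefrontal cortex and amygdala were not separated (difference 0.24, adjusted p = 0.482). The differences were 2.93 ± 0.15 in the hippocampus, 1.48 ± 0.15 in the striatum and -4.36 ± 0.15 in the cerebellum (adjusted p = 2.9e-26).

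Epha7 had a median of 15.79 (15.21 to 16.22) in the hippocampus, above all other arrays, and 11.90 (11.68 to 12.32) in the cerebellum, below all others, with the remaining medians between 13.75 and 13.94 and not separated from each other. The differences were 2.44 ± 0.15 and -2.31 ± 0.15. Epha5 was highest in the prefrontal cortex at 11.47 (11.01 to 12.33), followed by 11.33 (10.49 to 11.62) in the hippocampus, 10.51 (9.58 to 11.48) in the amygdala, 8.23 (7.33 to 8.91) in the striatum and 6.34 (5.86 to 7.59) in the cerebellum. It led the prefrontal calls with 2.43 ± 0.19 (adjusted p = 4.1e-13), although prefrontal cortex and hippocampus were not separated (difference 0.29, adjusted p = 0.477). Epha3 ran the other way: its median was 9.75 (9.50 to 10.06) in the cerebellum, where it was called higher (1.67 ± 0.19), and 6.44 (5.52 to 6.74) in the striatum, where it was called lower (-2.60 ± 0.19).

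Among EphB receptors, Ephb1 had a median of 12.35 (11.54 to 12.75) in the striatum, 11.72 (11.63 to 11.96) in the cerebellum, 10.54 (10.06 to 10.93) in the hippocampus, 9.68 (8.97 to 10.24) in the prefrontal cortex and 9.12 (7.78 to 10.38) in the amygdala. It was called higher in the striatum (2.03 ± 0.17, adjusted p = 3.7e-13) and the cerebellum (1.37 ± 0.17), and lower in the prefrontal cortex (-1.26 ± 0.17) and the amygdala (-1.95 ± 0.17). The highest amygdala array was 10.38, alanine array 1, which carried striatal markers. In the striatum the receptor Ephb1 and the ligands Efnb2 and Efnb3 were all called higher. Ephb6, a kinase-dead receptor, was called higher in the striatum and prefrontal cortex (1.09 and 1.01) and lower in the cerebellum (-2.25 ± 0.18), where its mean lay below the control medians.

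Other called members were Plxna2, a receptor of class 6 semaphorins, lower in the cerebellum (-1.35 ± 0.12), Plxnb3, higher in the striatum (1.07 ± 0.13) where the myelin genes were also higher, Efnb1, lower in the cerebellum (-1.05 ± 0.13), and Epha8, higher in the cerebellum (1.09 ± 0.14) at levels of 3.62 to 5.02 that lay below the control medians. The part of myelinating cells in the Plxnb3 difference was not tested. Epha8 exceeded the filter level on 4 arrays, the number needed, and its mean did so in no region. That mean was highest in the cerebellum, so the filter and the call drew in part on the same values. No region was called for the other 19 members. Of these, 12 read near background in every region, and the other 7 were Epha1, Plxna3, Plxnb1, Sema3d, Sema4b, Sema6a and Sema6c. Sema4b was the steadiest of the 7, with region medians from 7.62 to 8.10, and those of Sema3d ran from 6.82 to 7.94. By region means Sema6c had the widest range of the 7, at 1.04.

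A list of 63 other genes of guidance signalling, made of kinases, phosphatases, GTPase regulators, collapsin response mediators and further partners, was set beside the members. Of 58 tested, 12 were called higher and 12 lower in the cerebellum, 6 and 12 in the striatum, 8 and 1 in the hippocampus, 8 and 3 in the prefrontal cortex and 2 and 4 in the amygdala. The share called was 41.4% in the cerebellum, 31% in the striatum, 15.5% in the hippocampus and 10.3% in the amygdala, between the background and the share of the members. In the prefrontal cortex it was 19%, above the 14.5% of the members. Named by the width of their regional range, Chn2, a Rac inhibitor of the chimaerin family, differed by 6.55 ± 0.21 in the cerebellum. Kalrn, an exchange factor of dendritic spines, differed by -5.69 ± 0.19 there. Ngef, the exchange factor ephexin downstream of Epha4, differed by 4.28 ± 0.21 in the striatum and -5.14 ± 0.21 in the cerebellum. Ptpro, a phosphatase that acts on Eph receptors, differed by 3.23 ± 0.24 in the prefrontal cortex and -3.53 ± 0.24 in the cerebellum. None of the 58 differed between the genotypes in any region at an adjusted p under 0.05, with a smallest adjusted p of 0.738.

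The genotypes differed far less than the regions. Ala92 was compared with Thr92 within each region, on 4 arrays each, with a call at an adjusted p under 0.05 and differences given as alanine minus threonine. Of 62 members, 1 was called in the amygdala, against 0.12% of all genes. None was called in the cerebellum, the hippocampus or the prefrontal cortex, where the background was 0%, in the striatum (0.0801% of all genes), in the average over the regions (0.02%) or in the limma F-test of whether the difference varied between regions (0.0401%). At an unadjusted p under 0.05 the limma fit gave 7 members in the amygdala (11.3%, against 5.33% of all genes) and 6 in the average (9.68%, against 5.37%). It gave 0 in the cerebellum (against 1.94% of all genes), 2 in the hippocampus (3.23%, against 3.14%), 1 in the prefrontal cortex (1.61%, against 2.33%) and 3 in the striatum (4.84%, against 6.14%), shares near or below the background. The 95% intervals of the average difference lay within -0.86 and 0.61 for all 62 members, and the median absolute average difference was 0.08, against 0.07 for all genes.

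**Figure D3:**
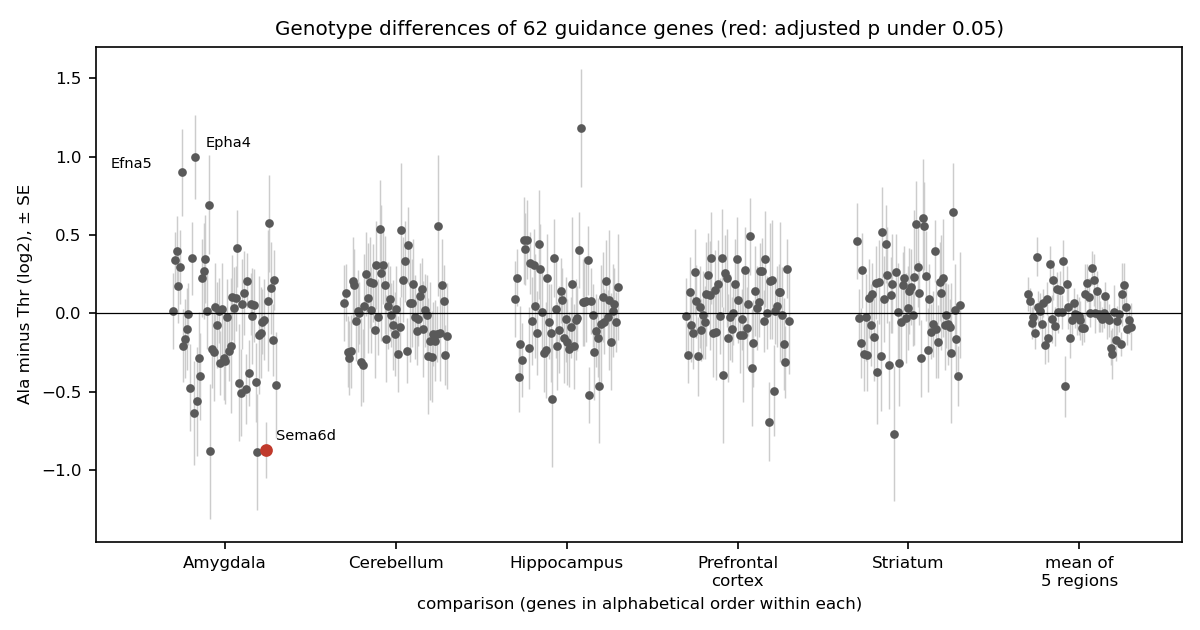
Each point is the alanine minus threonine log2 difference of 1 of the 62 tested members, with its standard error, in each region and averaged over the 5 regions, genes in alphabetical order. Red marks the single member past the threshold, Sema6d in the amygdala at -0.87, and in the average over regions no difference exceeds 0.47 in size.

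Sema6d was lower in the alanine amygdala. The 4 threonine arrays read 11.05, 11.28, 11.56 and 11.81 and the 4 alanine arrays 10.32, 10.43, 10.68 and 10.78. The groups did not overlap, which is no separate evidence because Sema6d was picked by its p. The share of all genes whose groups did not overlap was not counted. The difference was -0.87 ± 0.18 with an adjusted p of 0.0214 in the limma fit, a 95% interval of -1.23 to -0.52. In the other regions it was -0.13 in the cerebellum, -0.03 in the hippocampus, 0.14 in the prefrontal cortex and -0.09 in the striatum, each with an interval that spans 0. The limma F-test of a difference between regions, fitted across all genes, gave an adjusted p of 0.987, so the amygdala was not shown to stand apart from the other regions. The call did not hold under several alternatives: the adjusted p was 0.344 with the amygdala fitted alone and 0.286, at a difference of -0.70, without the 5 arrays that stood apart. Leaving out alanine array 1 or 2 or threonine array 5, 6 or 8 gave adjusted p-values of 0.0838, 0.116, 0.14, 0.236 and 0.0514, with differences from -0.74 to -0.92. Marker lists also moved: 10 of 12 amygdala markers were lower in the alanine amygdala, with a median difference of -0.59 and none called. The mean level of that list ran from 10.49 to 11.21 on the threonine arrays and from 9.51 to 10.85 on the alanine arrays. Olfactory bulb markers were higher in 0 of 9 genes (median -0.47, none called). Cerebellar markers were higher in 7 of 11 (median 0.21), with Barhl2 called lower. Sema6d itself was not highest in the amygdala: its region means ran from 10.77 in the prefrontal cortex to 13.24 in the cerebellum. The part of such tissue in the Sema6d difference was not tested.

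The next amygdala members missed the threshold. Epha4 read 10.01, 10.96, 10.97 and 11.12 on the threonine arrays and 10.96, 11.75, 12.13 and 12.20 on the alanine arrays. The groups overlapped by the lowest alanine array. The difference was 1.00 ± 0.27 (adjusted p = 0.227), and it passed only when alanine array 4 was left out (1.26, adjusted p = 0.0409). Without the 5 arrays that stood apart it was 0.59. Efna5, a ligand of Epha4, read 7.26, 7.89, 7.90 and 8.24 on the threonine arrays and 8.22, 8.49, 8.51 and 9.67 on the alanine arrays, a difference of 0.90 ± 0.28 (adjusted p = 0.433). Its groups overlapped by 1 threonine array, and the difference fell to 0.53 without the arrays that stood apart. Sema5a (-0.89 ± 0.37) and Nrp2 (-0.88 ± 0.43) had differences as large as that of Sema6d with wider errors (adjusted p = 0.827 and 0.93). Without alanine array 1 the Nrp2 difference was -0.23, and without the 5 arrays that stood apart it was -0.09, while that of Sema5a was -1.19.

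**Figure D4:**
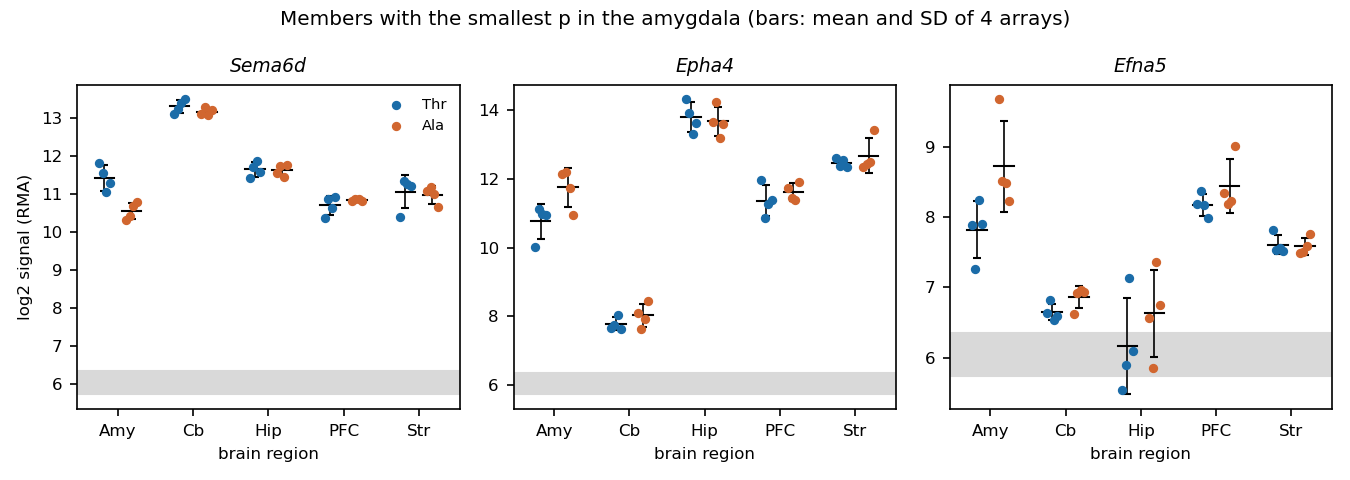
The log2 signals of Sema6d, Epha4 and Efna5 on all 40 arrays, by region (abbreviated Amy, Cb, Hip, PFC and Str) and genotype (blue, threonine; orange, alanine), with the mean and SD of 4 arrays and the control range in grey. In the amygdala the Sema6d groups do not overlap, from 10.32 to 10.78 against 11.05 to 11.81, while those of Epha4 and Efna5 overlap by an array. The genes were picked by their p in the amygdala, so the separation is no separate evidence.

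In the hippocampus Sema3a read 4.42, 5.00, 5.43 and 5.54 on the threonine arrays and 5.29, 6.23, 6.76 and 6.85 on the alanine arrays. The difference of 1.18 ± 0.37, with a 95% interval of 0.43 to 1.94, was the widest genotype difference of any member in any region and had an adjusted p of 1. Its groups overlapped by the lowest alanine array, and the 8 hippocampal levels lay around the control medians. Thalamic markers ran from 7.67 to 10.35 on the threonine hippocampal arrays and from 7.60 to 8.35 on the alanine ones, and their part in this difference was not tested. Sema3g (-0.52 ± 0.18) and Efnb2 (0.47 ± 0.25) followed, both with an adjusted p of 1. Without the 5 arrays that stood apart the differences were 1.57 for Sema3a (adjusted p = 0.193), -0.38 for Sema3g and 0.79 for Efnb2, none called.

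In the striatum Slit3 read 9.79, 10.20, 10.75 and 10.79 on the threonine arrays and 10.70, 10.92, 11.00 and 11.50 on the alanine arrays. The difference of 0.65 ± 0.31, like those of Robo1 (0.57 ± 0.27) and Unc5c (-0.40 ± 0.19), had an adjusted p of 0.806. Choroid plexus genes separated the striatal groups: the mean of the list ran from 7.89 to 10.74 on the alanine arrays and from 6.42 to 7.31 on the threonine arrays, and 9 of 9 genes were higher in alanine with a median difference of 2.09 and none called. Their part in these differences was not tested. Without the 5 arrays that stood apart the differences were 0.69, 0.65 and -0.37. In the prefrontal cortex Sema4g differed by -0.69 ± 0.25, Robo4 by 0.49 ± 0.24 and Sema6a by -0.49 ± 0.29. In the cerebellum Robo4 differed by 0.43 ± 0.24, Ephb6 by 0.54 ± 0.31 and Epha2 by -0.33 ± 0.23, and all 6 adjusted p-values rounded to 1. Over the average of the regions the smallest p belonged to Efna5 (0.36 ± 0.12), Robo4 (0.29 ± 0.11) and Epha4 (0.31 ± 0.12), each with an adjusted p of 0.849 and the same sign in 4 of 5 regions. Without the 5 arrays that stood apart the average of Epha4 was 0.12, while those of Efna5 and Robo4 were 0.37 and 0.29. Dcc, Ntn1 and Plxnd1 differed by 0.12 ± 0.11, 0.19 ± 0.11 and 0.12 ± 0.19 on average, with intervals of -0.10 to 0.34, -0.03 to 0.41 and -0.27 to 0.51.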

How the data were processed

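The values are log2 signals as deposited, which the authors obtained by RMA, per the submitters' processing notes. That method subtracts background, gives all arrays 1 distribution and combines a row's probes. Its version was not given. Array medians lay between 6.12 and 6.32, and no scaling was added. Rows were named through the platform annotation, and for each gene the row with the highest mean was kept. A gene was tested where 4 or more arrays exceeded log2 4.60, the 30th percentile of the table. The fit used limma 3.58.1 in R 4.3.3, with 10 group means, eBayes with a trend, 30 residual degrees of freedom and Benjamini-Hochberg adjustment over all 14978 genes. All adjusted p-values in the text are from these fits. Symbols matched 64 times before Sema3e was left out.

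The members and the 20 gene lists were chosen with earlier results of these data known. Named with values were 12 set genes, the 5 highest and 3 lowest called members of each region, the widest-ranging member of each family, the 3 smallest p of each genotype comparison and 4 genes of the signalling list. Further members are named where they were called. The number of arrays limits the precision. The fit was tested on simulated data.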

Additional observations from a re-analysis of the deposited data

Results flagged for a closer look

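Within the groups of 4 arrays and the regions of 8 arrays, 80 sets of values of named members were searched for an array far from the others, and 9 had one. Chance alone marks about 1 in 20 sets. In the amygdala, threonine array 5 was lowest for Epha4 at 10.01, with the next threonine array at 10.96. Alanine array 1 was lowest for Nrp2 at 6.59 and alanine array 2 lowest for Plxnd1 at 7.13, and both arrays also stood apart in marker genes of other tissue. In the prefrontal cortex, alanine array 28 was lowest for Robo2 at 10.52 and highest for Efna5 at 9.02. In the striatum, alanine array 36, which carried choroid plexus genes, was highest for Epha4 at 13.43. Ephb6 was highest at 5.69 on alanine cerebellum array 12, Ntn1 lowest at 5.29 on threonine cerebellum array 13 and Efna3 highest at 12.38 on threonine hippocampus array 21.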

How the results depend on the processing

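The tests were repeated without the filter and with a stricter one, after quantile normalization and after centring on medians, with robust variances, with array weights, with the mean of a gene's rows, with each region fitted alone and without each array in turn. Fits without the 5 arrays that stood apart and within each genotype were added after seeing the data. Of 3268 such values for named members, 3256 kept their direction and side of the threshold, 11 lost the call, 1 gained it and 0 reversed. Many of these values could hardly change, so the total is no measure of robustness. Each member had 1 row, and leaving out an array of another region does not alter a genotype difference. The only genotype call, Sema6d in the amygdala, was lost in 5 of the fits without 1 array. Of 851 counts of called members, 17 moved by over 1.5 times. With no minimum size, 20 members were called higher and 15 lower in the amygdala, 20 and 13 in the hippocampus, 18 and 13 in the prefrontal cortex, and 22 lower in the striatum, since that rule asks less. The 3 prefrontal members called lower became 5 on the threonine arrays and the 3 amygdala ones 6 on the alanine arrays. The amygdala genotype count of 1 became 0 with the region fitted alone and 0 without the 5 arrays, and 0 to 2 without 1 array. The cause of the last changes was not tested. Centring lowered all cerebellar differences by about 0.10, a median of -0.10 over all genes, and left 11 higher and 23 lower calls there. No paired analysis was possible because the groups share no replicate numbers. Signals at or below the control medians in every region, 15 members, limit what those genes can show.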
